A study of Mus musculus with 2 samples.

Results

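Th17 cells are CD4 helper T cells named for interleukin 17, and 9 genes of their programme were described here in diabetogenic CD4 T cells of the mouse. The 9 genes were taken by symbol from the deposited count table, which holds 54532 gene rows, and each symbol matched 1 row. They comprise the cytokine genes Il17a, Il17f and Il22, the receptor genes Il23r, Ccr6 and Il17re, the transcription factor gene Rora, and the membrane protein genes Tmem176a and Tmem176b. The cells were BDC-2.5 effector T cells, which carry a transgenic T cell receptor against an antigen of pancreatic beta cells. They had been activated and transferred into NOD.scid mice, whose own T and B cells are missing but whose innate cells remain. In the 2.5HIP-PLG group the recipients were given 1.75 mg of nanoparticles intravenously on day 1 after transfer. In the untreated group the treatment label gives none, although the injection is written into the protocol of either sample. The name 2.5HIP-PLG stands for a hybrid insulin peptide recognised by this receptor and the polymer poly(lactide-co-glycolide). On day 6 after transfer, CD4-positive cells that lacked the Foxp3 reporter (GFP) were collected from spleen and lymph nodes in both groups, as a pool of 4 mice each. The submitters sequenced the cells to look for mechanisms of tolerance, with 1 library per group.

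Each library is a pool without a replicate, so differences could not be checked against replicates and p-values are not given. Levels are counts per 1000000 library counts (CPM), from library totals of 22580648 in 2.5HIP-PLG cells and 26036623 in untreated cells. Each ratio is the 2.5HIP-PLG level over the untreated level, and its exact 95% interval takes in counting error alone. A gene was called lower or higher where its ratio reached 1.5-fold and its interval did not hold 1. A count of 0 was given a chosen limit of 3 counts, which is 0.133 CPM in 2.5HIP-PLG cells and 0.115 CPM in untreated cells. The exact 95% upper bound for 0 counts is somewhat higher, 0.163 CPM in 2.5HIP-PLG cells. CD4 T cell identity genes were abundant, with Cd4 at 41743 counts in 2.5HIP-PLG cells and 39739 in untreated cells. Lck had a ratio of 1.02 (1.01 to 1.04), and Trac had 24327 counts in 2.5HIP-PLG cells and 21638 in untreated cells. Of 9 such genes, 0 were called, but all 9 had intervals above 1, and their summed ratio was 1.22 (1.21 to 1.23). In bulk RNA, fewer cells of a type and less RNA per cell cannot be told apart.

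Th17 cells guard mucosal barriers by calling in neutrophils and also take part in autoimmune inflammation. They arise under transforming growth factor beta and interleukin 6, acting through STAT3, and are sustained by interleukin 23. Retinoid-related orphan receptors (ROR), to which the Rora product belongs, drive transcription of the interleukin 17 genes. BDC-2.5 cells polarised towards Th17 have been described to turn to interferon gamma production after transfer into NOD.scid mice.

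All 9 Th17 genes were lower in 2.5HIP-PLG cells than in untreated cells. Of 13902 genes whose 2 counts summed to at least 20, 9.7% were called lower and 5.15% higher. Ratios lay between 0.141 for Il17a and 0.502 for Ccr6, apart from Il22, which had no counts in 2.5HIP-PLG cells. Median log2 ratio was -1.55 over the 9 genes and -0.01 over all measured genes. Il17a, Il17f and Il22 reached the count minimum only through the untreated library, so a low ratio was built into their passing it. The other 6 had at least 20 counts in each library, and 6 of 6 were called lower. Because the 9 genes and the call rule were chosen with earlier results of these data known, these counts describe the genes and test nothing.

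**Figure D1:**
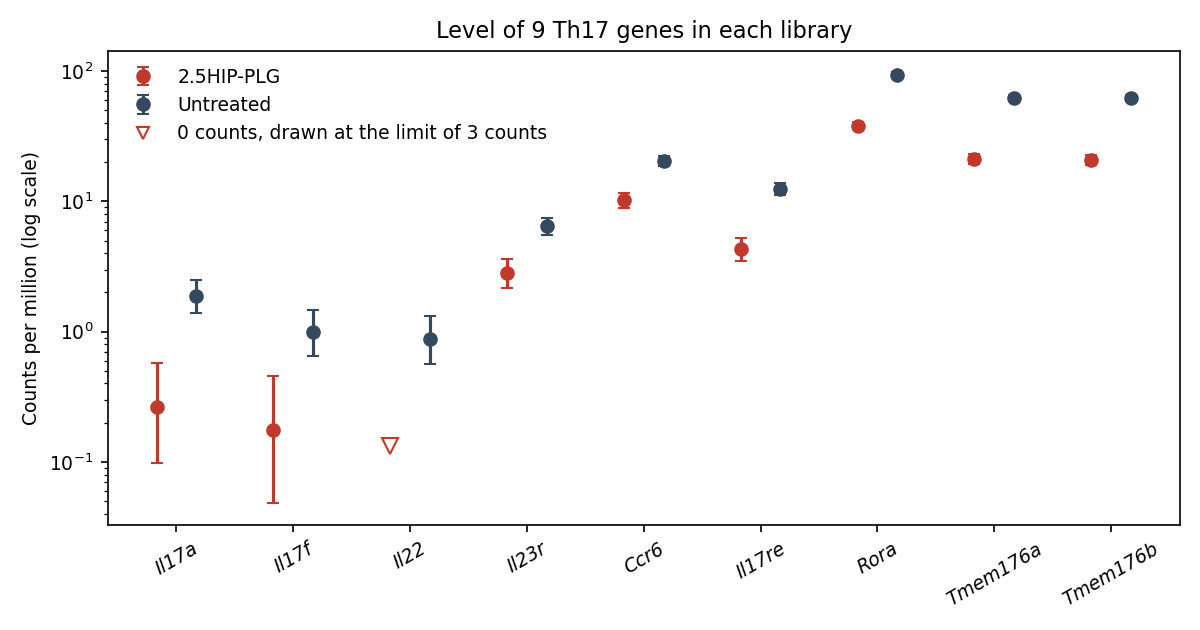
Level of each of the 9 genes in CPM on a log scale, in 2.5HIP-PLG cells (red, left of each pair) and the untreated library (dark, right). Bars are exact 95% Poisson intervals for counting error, and the open triangle is Il22 with 0 counts, drawn at the limit of 0.133 CPM. In all 9 pairs the 2.5HIP-PLG point lies below the untreated point.

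The share of genes called lower depended on abundance, so the 9 genes were set beside protein-coding genes of like count. Where the count sum of such genes was 20 to under 100, 20.9% were called lower, and the 3 cytokine genes fall there. From 100 to under 1000 the share was 12.5%, and the 3 receptor genes fall there with ratios of 0.343 to 0.502. At 1000 and above the share was 2.74%, and Rora, Tmem176a and Tmem176b fall there with ratios of 0.333 to 0.406. Among 4135 protein-coding genes within a factor of 2 of the Tmem176b count sum, 17 (0.411%) had a log2 ratio as low as that of Tmem176b. For Rora, 16 of 3849 such genes (0.416%) were as low, and for Il23r, 107 of 1718 (6.23%). These ranks are likewise descriptions of genes chosen with earlier results known, and they do not measure chance.

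**Figure D2:**
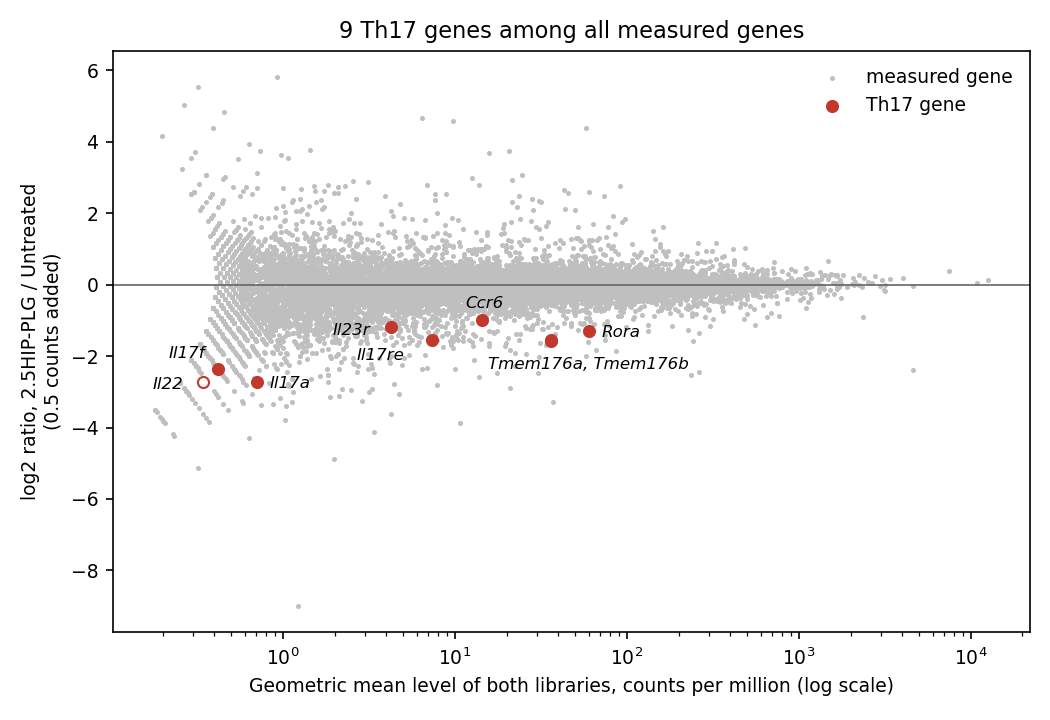
Log2 ratio of 2.5HIP-PLG over untreated levels, with 0.5 counts added, against the geometric mean level of both libraries in CPM on a log scale, for measured genes with counts above 0 in both libraries (grey). The 9 Th17 genes (red) lie below the line at 0 from the scarce cytokine genes at the left to Rora at the right, and Il22 (open) is drawn at its bound of -2.73, with 3 counts in place of 0.

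The cytokine genes were scarce in both libraries. Il17a and Il17f encode the 2 interleukin 17 proteins that form homodimers and a heterodimer and act on epithelium and stroma, and Il22 encodes a cytokine that acts on epithelial cells. Il17a (chr1:20730905-20734496, plus strand) had 6 counts in 2.5HIP-PLG cells and 49 in untreated cells. These are 0.266 CPM in 2.5HIP-PLG cells and 1.88 CPM in untreated cells, a ratio of 0.141 (0.0494 to 0.330). Its neighbour Il17f (chr1:20777146-20790617, minus strand) had 4 counts in 2.5HIP-PLG cells and 26 in untreated cells, a ratio of 0.177 (0.0450 to 0.511). The intervals of the 2 genes overlap widely, and both lie below 1. Il17a made up 60.0% of the pair's counts in 2.5HIP-PLG cells (exact binomial bounds 26.2 and 87.8) and 65.3% in untreated cells (53.5 to 76.0), so a shift within the pair was not detectable at this depth.

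Il22 (chr10:118204942-118210047, plus strand) had 0 counts in 2.5HIP-PLG cells and 22.84 expected counts, rounded to 23, in untreated cells. The exact 95% interval of its ratio ran from 0 to 0.201. With the 2.5HIP-PLG library set to the limit of 3 counts and the untreated count taken without error, its level was at least 6.65-fold lower in 2.5HIP-PLG cells. Il22 was the only one of the 9 genes whose deposited count was not whole. Its copy Iltifb, whose transcript matches it at 97.4% of 1110 aligned bases, had 0 and 1.16 expected counts in 2.5HIP-PLG and untreated cells. The pair together had 0 counts in 2.5HIP-PLG cells and 24 in untreated cells. The 3 cytokine genes summed to 10 counts in 2.5HIP-PLG cells and 98 in untreated cells, a ratio of 0.118 (0.0547 to 0.226).

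The sequence before the start sites of both interleukin 17 genes is shown because each holds the letters AGGTCA, the core of the ROR response element. The windows are the 250 bases before the RefSeq start site in build GRCm38.p6, written 5′ to 3′ on the gene's strand, with AGGTCA on either strand in capitals. They cover chr1:20730655-20730904 on the plus strand for Il17a and chr1:20784271-20784520 on the minus strand for Il17f.
Il17a: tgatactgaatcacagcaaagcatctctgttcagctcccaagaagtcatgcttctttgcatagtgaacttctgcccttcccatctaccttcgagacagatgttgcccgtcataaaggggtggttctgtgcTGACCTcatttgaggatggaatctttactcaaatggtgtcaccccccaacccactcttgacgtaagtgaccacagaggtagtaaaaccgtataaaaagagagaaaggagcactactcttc
Il17f: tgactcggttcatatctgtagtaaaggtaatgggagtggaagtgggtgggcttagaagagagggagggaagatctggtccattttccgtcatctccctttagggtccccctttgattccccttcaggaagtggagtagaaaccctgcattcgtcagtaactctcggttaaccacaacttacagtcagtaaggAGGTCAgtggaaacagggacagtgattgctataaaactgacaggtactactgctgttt
The capitals start 120 bases before the start site in Il17a, on the opposite strand, and 58 bases before it in Il17f. A match of letters is a description and does not show binding.

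The 3 receptor genes had ratios of 0.343 to 0.502. Il23r encodes the subunit that gives the interleukin 23 receptor its specificity. It (chr6:67422932-67491855, minus strand) had 64 counts in 2.5HIP-PLG cells and 168 in untreated cells. In levels this was 2.83 CPM in 2.5HIP-PLG cells and 6.45 CPM in untreated cells, a ratio of 0.439 (0.324 to 0.589). Ccr6 encodes the receptor for the chemokine CCL20, which draws Th17 cells to inflamed tissue and epithelium. On chr17:8236043-8257141, plus strand, it had 231 counts in 2.5HIP-PLG cells and 531 in untreated cells, a ratio of 0.502 (0.428 to 0.587). That ratio was the highest of the 9. Il17re encodes the subunit that binds interleukin 17C together with the shared subunit IL-17RA. On chr6:113458484-113470758, plus strand, it had 97 counts in 2.5HIP-PLG cells and 326 in untreated cells, which is 4.30 CPM in 2.5HIP-PLG cells and 12.5 CPM in untreated cells, a ratio of 0.343 (0.271 to 0.432). Summed over the 3 receptor genes, the ratio was 0.441 (0.392 to 0.496). It is not set against the sum of the 3 cytokine genes, whose low ratio was built into their passing the count minimum, and the interval of Il17f overlapped those of all 3 receptor genes.

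The windows before the start sites of Il23r and Ccr6 are shown because they too hold AGGTCA. They cover chr6:67491856-67492105 on the minus strand for Il23r and chr17:8235793-8236042 on the plus strand, the first of 2 start sites, for Ccr6. Capitals mark AGGTCA and, in Ccr6, also the STAT site letters TTCNNNGAA, on either strand.
Il23r: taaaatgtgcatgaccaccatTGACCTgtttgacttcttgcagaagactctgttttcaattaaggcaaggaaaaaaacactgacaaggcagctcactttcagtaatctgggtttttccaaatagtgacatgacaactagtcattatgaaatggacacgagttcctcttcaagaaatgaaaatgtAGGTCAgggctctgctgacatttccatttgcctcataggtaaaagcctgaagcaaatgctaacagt
Ccr6: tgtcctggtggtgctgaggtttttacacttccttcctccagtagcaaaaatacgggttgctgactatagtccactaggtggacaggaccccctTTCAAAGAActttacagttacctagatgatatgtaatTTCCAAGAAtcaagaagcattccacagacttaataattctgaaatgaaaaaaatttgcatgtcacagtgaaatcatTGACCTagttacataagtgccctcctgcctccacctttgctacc
Il23r holds 2 matches of AGGTCA, and Ccr6 holds 1 match of AGGTCA and 2 of TTCNNNGAA, none of which overlap. Over windows of 300 bases (250 before and 50 after the start site), 4 of the 9 genes held AGGTCA in at least 1 window, against 18.1% of 27025 genes in the RefSeq table. TTCNNNGAA was held by 1 of the 9 genes, Ccr6, against 9.55% of genes. All 9 genes had a window in the table, and no match says only that the letters are not in that window.

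Rora, Tmem176a and Tmem176b were the members with the most counts and the narrowest intervals. Rora encodes the nuclear receptor ROR alpha, which promotes the Th17 programme and is also needed for type 2 innate lymphoid cells. On chr9:68653786-69388246, plus strand, it had 864 counts in 2.5HIP-PLG cells and 2454 in untreated cells. Its level was 38.3 CPM in 2.5HIP-PLG cells and 94.3 CPM in untreated cells, a ratio of 0.406 (0.375 to 0.439). One antisense gene, Gm15511, shares 82 exonic bases with Rora and had 0 counts in both libraries.

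Tmem176a and Tmem176b encode membrane proteins with 4 spans, described as cation channels and as abundant in Th17 cells and dendritic cells. Tmem176a (chr6:48840919-48847071, plus strand) had 479 counts in 2.5HIP-PLG cells and 1615 in untreated cells, a ratio of 0.342 (0.308 to 0.379). Tmem176b (chr6:48833818-48841496, minus strand) had 470 counts in 2.5HIP-PLG cells and 1625 in untreated cells, a ratio of 0.333 (0.300 to 0.370). A shift within the pair was not detectable, with Tmem176a at 50.5% of the pair's counts in 2.5HIP-PLG cells (exact binomial bounds 47.2 and 53.7) and 49.8% in untreated cells (48.1 to 51.6). The 2 genes are divergent neighbours whose annotated spans overlap by 578 bases and whose exons share 81 bases. Since strand use in counting is not given in the sources used here, reads from the shared bases cannot be told apart.

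The window before a start site of Tmem176a is shown because part of it also lies before a start site of Tmem176b on the other strand. It covers chr6:48841233-48841482 on the plus strand, and capitals mark the 108 bases between the 2 start sites.
Tmem176a: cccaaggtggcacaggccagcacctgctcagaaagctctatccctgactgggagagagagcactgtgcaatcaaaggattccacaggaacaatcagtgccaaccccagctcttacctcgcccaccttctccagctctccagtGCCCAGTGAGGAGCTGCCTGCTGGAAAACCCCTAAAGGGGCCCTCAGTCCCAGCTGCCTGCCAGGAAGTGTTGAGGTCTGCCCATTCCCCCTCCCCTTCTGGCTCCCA
Neither AGGTCA nor TTCNNNGAA occurs in the 2 windows of Tmem176a or the 3 windows of Tmem176b.

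**Figure D3:**
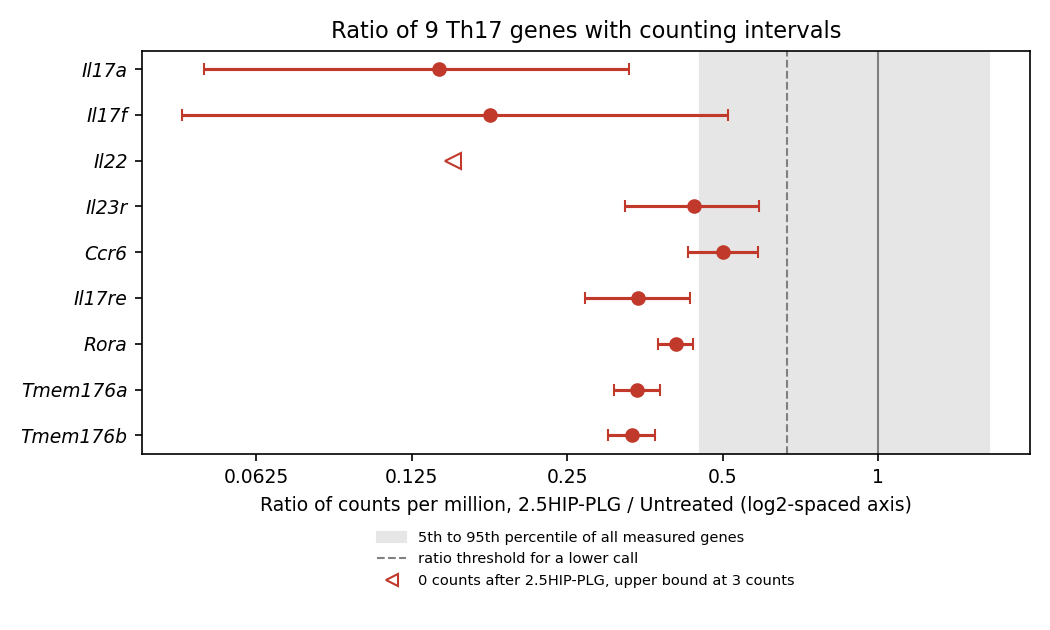
Ratio of CPM, 2.5HIP-PLG over untreated, for each of the 9 genes on a log2-spaced axis. Bars are exact 95% intervals for counting error, the dashed line is the ratio threshold for a lower call, the grey band spans the 5th to 95th percentile of all measured genes, and the open arrow is Il22 at its bound. All 9 lie left of the dashed line, and the intervals of Tmem176a, Tmem176b and Rora are the narrowest.

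The 9 ratios were not all alike within counting error. Of 36 pairs of genes, 25 had overlapping intervals. The interval of Ccr6 lay above those of Il17a, Il22, Tmem176a and Tmem176b, and the interval of Rora lay above those of Il17a, Il22 and Tmem176b. The interval of Il22 also lay below those of Il23r, Il17re, Tmem176a and Tmem176b. Low ratios of Il17a and Il22 were built into their passing the count minimum, so pairs with either gene cannot show a difference. Free of that limit were the pairs of Ccr6 with Tmem176a and Tmem176b and of Rora with Tmem176b. The 9 genes together had 2215 counts in 2.5HIP-PLG cells and 6817 in untreated cells, a ratio of 0.375 (0.357 to 0.393), which fell inside the intervals of 4 of the 9. Without Rora and the Tmem176 pair, the other 6 had a summed ratio of 0.413 (0.367 to 0.463).

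Per kilobase of annotated exon, the order of levels was nearly the same in both libraries. Tmem176b stood first, at 8.78 CPM per kilobase in 2.5HIP-PLG cells and 26.3 in untreated cells. It was followed by Tmem176a, at 5.57 in 2.5HIP-PLG cells and 16.3 in untreated cells, and by Ccr6, at 4.41 in 2.5HIP-PLG cells and 8.79 in untreated cells. Next came Rora, with 2.93 CPM per kilobase in 2.5HIP-PLG cells and 7.21 in untreated cells, and then Il23r with 1.14 and Il17re with 0.732 in 2.5HIP-PLG cells, against 2.59 and 2.13 in untreated cells. Neighbours among these first 6 had counting intervals apart in each library except Il23r and Il17re. Intervals of those 2 overlapped in both libraries, and their order turned when the longest transcript was used in place of all exons. Tmem176a and Tmem176b had nearly equal counts, so their order comes from their exon lengths of 3810 and 2371 bases. The intervals do not take in error in length. The 3 cytokine genes came last, at up to 0.227 CPM per kilobase in 2.5HIP-PLG cells and up to 1.61 in untreated cells, and neighbours in order among the 3 had overlapping intervals. Il17a and Il17re, the step between the cytokine and the receptor genes, were apart in 2.5HIP-PLG cells but had overlapping intervals in untreated cells. That overlap depends on the length used. By the longest transcript, Il17re had 4.26 CPM per kilobase in untreated cells and Il17a 1.61.

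Genes beside the members on the chromosome were mostly not called, which also holds for measured genes at large. Over all measured genes, 9.7% were called lower and 5.15% higher. Il12rb2, next to Il23r and encoding a subunit of the interleukin 12 receptor, had 1969 counts in 2.5HIP-PLG cells and 2384 in untreated cells, a ratio of 0.952 (0.897 to 1.01). Mcm3, a replication helicase gene next to Il17f, had a ratio of 1.19 (1.14 to 1.24), and Gimap3, left of the Tmem176 pair, a ratio of 0.949 (0.929 to 0.969). Vps13c and Ice2 beside Rora had ratios of 0.888 (0.831 to 0.949) and 1.04 (0.905 to 1.21). Fgfr1op, left of Ccr6, had a ratio of 1.49 (1.29 to 1.72), just short of a higher call, and Mpc1 on its right had 0.916 (0.818 to 1.02). Jagn1, left of Il17re, had a ratio of 0.988 (0.830 to 1.18). Around the cytokine genes, Mdm1 next to Il22 had 0.897 (0.777 to 1.04), and the pseudogenes Gm9030 and Gm5828 had 0.702 (0.334 to 1.42) and 1.10 (0.576 to 2.10).

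Beside the members that neighbour each other, 2 neighbours were called lower, where the share over all measured genes was 9.7%. Il17rc, which lies 669 bases from Il17re and encodes the subunit that joins IL-17RA to bind interleukin 17A and 17F, had 9 counts in 2.5HIP-PLG cells and 87 in untreated cells, a ratio of 0.119 (0.0528 to 0.237). It too reached the count minimum only through the untreated library. Gpnmb, a glycoprotein gene 189475 bases right of Tmem176a, had 49 counts in 2.5HIP-PLG cells and 112 in untreated cells, a ratio of 0.504 (0.353 to 0.712).

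The rest of the pathway did not move as one. Over 7 lists of other genes, 65 of 81 were measured, and 13 were called lower, 7 higher and 45 neither (median log2 ratio -0.02). The clock list holds 5 of the 13 lower calls. Over all 13902 measured genes, 9.7% were called lower and 5.15% higher, and the counts of each list below stand beside these shares. The lists were not matched for abundance. Among protein-coding genes the lower share fell from 20.9% at count sums of 20 to under 100 to 2.74% at 1000 and above. Of the genes called and named below, Il21, Il6ra, Maf, Hif1a, Nr1d1, Itgax, Lyz2, Klra1 and Klrb1c had deposited counts that were not whole, so their values depend on how reads were shared among genes.

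Of 20 other receptor genes of the pathway, 18 were measured, and 5 were lower, 2 higher and 11 neither (median log2 ratio -0.40). Beside Il17rc, lower calls fell on Ccr4, a chemokine receptor of skin-homing and Th17 cells (0.332, 0.274 to 0.3999), and Ltb4r1, a leukotriene B4 receptor (0.431, 0.321 to 0.572). Il1r1, the interleukin 1 receptor that promotes Th17 responses, had 249 counts in 2.5HIP-PLG cells and 540 in untreated cells, a ratio of 0.532 (0.456 to 0.619). Tgfbr1, Il6ra and Il6st are named because their calls complete the count, after their values were seen. Tgfbr1 was lower at 0.566 (0.504 to 0.636). The interleukin 6 receptor genes were both higher, Il6ra at 1.79 (1.63 to 1.98) and Il6st at 1.80 (1.66 to 1.95). Il17ra, the subunit that Il17re and Il17rc products join, had a ratio of 0.689 (0.666 to 0.712), and Il12rb1, the partner of the Il23r product, 0.909 (0.853 to 0.968), neither of them called.

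Among 11 transcription factor genes that promote the programme, all measured, 4 were higher, 1 lower and 6 neither (median log2 ratio 0.28). Irf4, a factor induced by antigen receptor signalling, had 3917 counts in 2.5HIP-PLG cells and 1335 in untreated cells, a ratio of 3.38 (3.18 to 3.60). Hif1a, the oxygen-sensing factor, was higher at 2.24 (2.17 to 2.32) and Maf at 1.61 (1.55 to 1.67). Batf, which pairs with Irf4 and was named after its value was seen, was higher at 1.60 (1.49 to 1.71). Ahr, the aryl hydrocarbon receptor needed for Il22 expression, was lower, with 76 counts in 2.5HIP-PLG cells and 184 in untreated cells (0.476, 0.360 to 0.625). Stat3 had a ratio of 1.21 (1.17 to 1.25) and was not called.

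Of 9 measured genes that restrain the programme, 0 were called in either direction, and their median log2 ratio was 0.17. The widest from 1 was Nfil3, a repressor linked to the clock, at 1.41 (1.17 to 1.68), followed by Stat5a at 1.26 (1.18 to 1.34), Ets1 at 1.18 (1.16 to 1.20) and Il27ra at 1.14 (1.10 to 1.18). Among 12 genes of interleukin 17 receptor signalling, 1 was lower and 11 neither, with a median of -0.01. Tnfaip3, which encodes the inhibitor A20, was the lower one at 0.511 (0.494 to 0.528). Traf3ip2, the adaptor Act1 of the interleukin 17 receptors, had 1.03 (0.963 to 1.10), Traf6 0.879 (0.818 to 0.943), Cebpb 0.717 (0.619 to 0.829) and Cebpd 1.17 (0.797 to 1.73).

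Only 2 of 7 other cytokine and chemokine genes were measured. Il21, made by Th17 and follicular helper cells, had 1726 counts in 2.5HIP-PLG cells and 147 in untreated cells, a ratio of 13.5 (11.4 to 16.1). Csf2, encoding the growth factor GM-CSF, had 27 counts in 2.5HIP-PLG cells and 59 in untreated cells, a ratio of 0.528 (0.322 to 0.845). Il17b, Il25 and Ccl20, which encodes the ligand of CCR6, had 0 counts in both libraries.

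Clock genes whose promoters carry ROR response elements, the textbook targets of ROR alpha, were lower as well. Of 6 listed genes 5 were measured, and 5 of 5 were called lower with a median log2 ratio of -1.16. Rora itself had -1.30, and 9.7% of all measured genes were called lower. Whether the values of the clock genes are linked to that of Rora was not tested. Npas2 reached the count minimum only through the untreated library, so its low ratio was built in, while the other 4 had at least 20 counts in each library. Cry1, a clock repressor, had 426 counts in 2.5HIP-PLG cells and 1101 in untreated cells, a ratio of 0.446 (0.398 to 0.499). Nr1d1 and Nr1d2, which encode the REV-ERB repressors that bind the same element, had ratios of 0.393 (0.318 to 0.482) and 0.451 (0.375 to 0.539). Npas2 had 6 counts in 2.5HIP-PLG cells and 22 in untreated cells, a ratio of 0.314 (0.104 to 0.800), and Arntl, the clock activator BMAL1 and named to complete the count, had 0.621 (0.547 to 0.703).

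The Ms4a genes, relatives of the Tmem176 pair, were not called. Of 15 listed, 8 were measured and 0 met the rule in either direction, with a median log2 ratio of 0.06. Ms4a4b had 21186 counts in 2.5HIP-PLG cells and 22491 in untreated cells, a ratio of 1.09 (1.07 to 1.11), and was named for its abundance after its value was seen. The ratios farthest from 1 belonged to scarce genes, Ms4a2 at 2.02 (0.790 to 5.55), Ms4a4a at 1.83 (0.841 to 4.12) and Ms4a4d at 1.38 (0.732 to 2.64), followed by Ms4a6c at 0.858 (0.719 to 1.02).

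**Figure D4:**
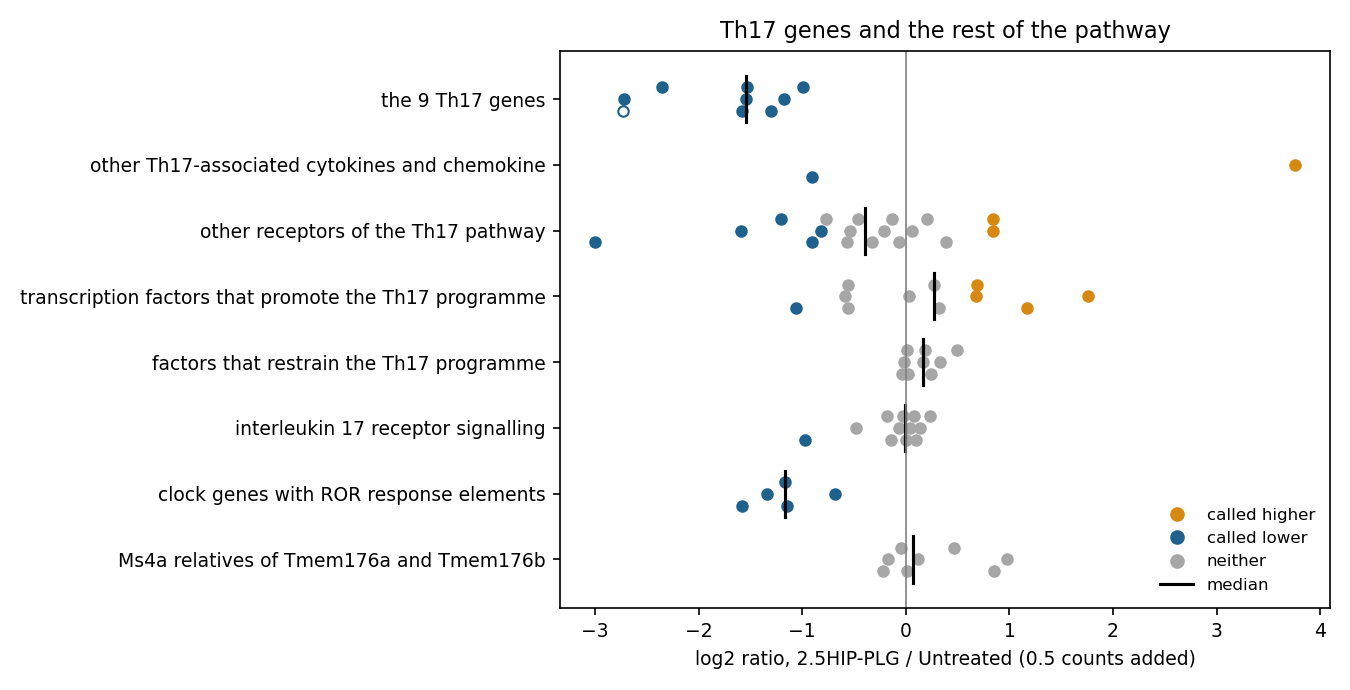
Log2 ratio of 2.5HIP-PLG over untreated levels, with 0.5 counts added, for the 9 Th17 genes (top row) and the measured genes of 7 other lists, each point 1 gene coloured by its call. Vertical bars are medians of rows with at least 3 genes, and Il22 (open) is drawn at its bound. The 9 genes and the 5 clock genes lie left of 0, while the other rows span it.

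Markers of other T cells moved in part with the Th17 genes. Gamma-delta T cells include strong producers of interleukin 17, and of 7 gamma-delta markers 3 were lower, 0 higher and 4 neither. For this and the other marker lists, the shares over all measured genes were 9.7% lower and 5.15% higher. The gamma-delta markers summed to 68.4 CPM in 2.5HIP-PLG cells and 93.98 CPM in untreated cells, a ratio of 0.728 (0.682 to 0.776). Cd163l1, which encodes SCART1 and marks interleukin 17-producing gamma-delta cells in mice, had 69 counts in 2.5HIP-PLG cells and 403 in untreated cells, a ratio of 0.197 (0.151 to 0.255). Tcrg-C4, a gamma constant segment, had 130 counts in 2.5HIP-PLG cells and 382 in untreated cells (0.392, 0.319 to 0.480). Trdc, the delta constant segment, had 1177 counts in 2.5HIP-PLG cells and 1377 in untreated cells (0.986, 0.911 to 1.07). The whole list had 1544 counts in 2.5HIP-PLG cells and 2447 in untreated cells, so its summed ratio rests mostly on Trdc. Of the other markers in the list, only Sox13, named after its value was seen, had a ratio above 1 (1.24, 0.713 to 2.15). Not all intervals of the rest excluded 1. Trbv2 is the beta segment of the BDC-2.5 receptor, and other Trbv segments accounted for 1.37% of all Trbv counts in 2.5HIP-PLG cells (1.18 to 1.57) and 4.14% in untreated cells (3.82 to 4.47). The 4 Y-linked genes Ddx3y, Eif2s3y, Kdm5d and Uty summed to 148 counts in 2.5HIP-PLG cells and 760 in untreated cells, a ratio of 0.225 (0.187 to 0.268), and all 4 were lower. The ratio was 0.211 (0.153 to 0.285) for Ddx3y, 0.234 (0.166 to 0.323) for Eif2s3y and 0.193 (0.128 to 0.284) for Kdm5d. The part of these differences in the values of the 9 genes was not tested.

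Cells that are known to carry single members of the group were looked for as well. Dendritic cells and macrophages express Tmem176a and Tmem176b. Of 8 dendritic cell markers 5 were measured and 1 was lower, with a sum of 18.6 CPM in 2.5HIP-PLG cells and 30.8 CPM in untreated cells (0.602, 0.534 to 0.679). Itgax, also made by activated T cells, was the lower one at 0.389 (0.310 to 0.485), H2-Aa had 0.756 (0.620 to 0.919), Xcr1 had 0.692 (0.502 to 0.947), and Clec9a had 0 counts in 2.5HIP-PLG cells and 1 in untreated cells. The Tmem176 pair summed to 42.0 CPM in 2.5HIP-PLG cells and 124 CPM in untreated cells. Sums over different genes do not measure shares of cells, and the part of dendritic cells or macrophages in the Tmem176 values was not tested. Of 6 macrophage markers 5 were measured, with 2 higher and 0 lower and a sum of 22.0 CPM in 2.5HIP-PLG cells and 20.4 CPM in untreated cells (1.08, 0.951 to 1.22). Itgam had a ratio of 0.777 (0.652 to 0.925), Cd68 of 1.29 (0.966 to 1.71) and Lyz2 of 2.48 (1.74 to 3.58), and Fcgr1 had 0 counts in 2.5HIP-PLG cells and 3 in untreated cells.

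B cells express Ccr6, and their 6 markers summed to 10 counts in 2.5HIP-PLG cells and 22 in untreated cells, with Ms4a1 at 0 in both and Cd79b highest at 5 counts in 2.5HIP-PLG cells and 12 in untreated cells. Cd79a had 2 counts in 2.5HIP-PLG cells and 3 in untreated cells, and Pax5 had 1 in 2.5HIP-PLG cells and 6 in untreated cells. Of 6 innate-like lymphocyte markers 1 was higher and 2 lower, with a sum of 52.2 CPM in 2.5HIP-PLG cells and 45.9 CPM in untreated cells (1.14, 1.05 to 1.23). Klra1 was the higher one at 2.78 (2.39 to 3.25), with 579 counts in 2.5HIP-PLG cells and 240 in untreated cells. Every other marker of this list had a ratio below 1, though not all of their intervals excluded 1, so the summed ratio above 1 rests on Klra1. Kit had 0.715 (0.616 to 0.829) and Klre1 0.790 (0.660 to 0.944). The 2 lower ones, named after their values were seen, were Klrb1c at 0.466 (0.266 to 0.787) and Ncr1 at 0.649 (0.456 to 0.915).

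**Figure D5:**
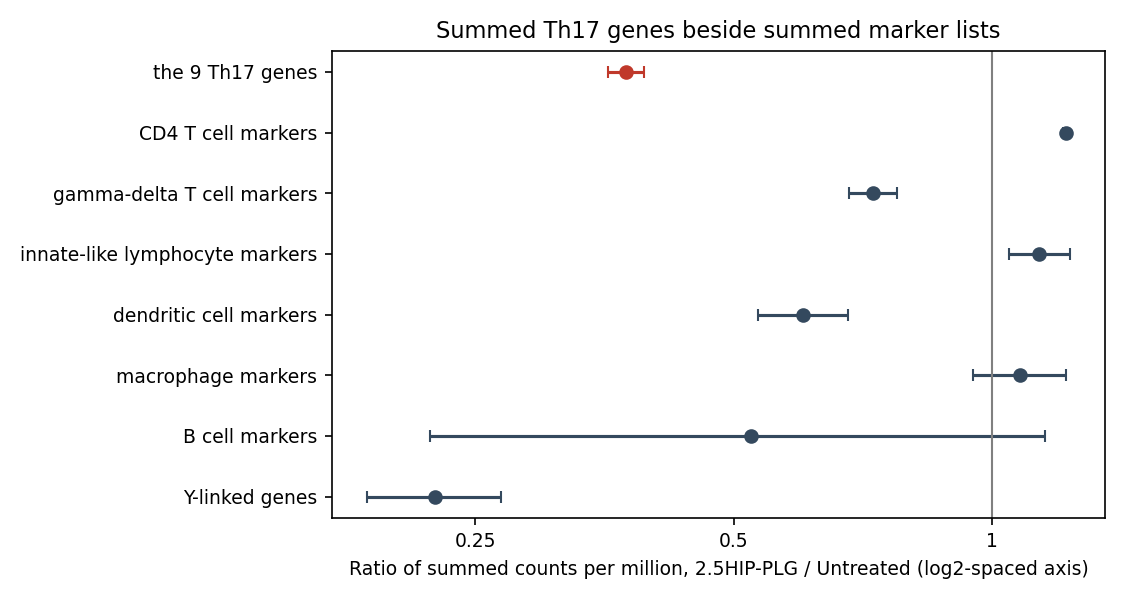
Ratio of summed CPM, 2.5HIP-PLG over untreated, for the 9 Th17 genes (red) and for each marker list (dark), on a log2-spaced axis with exact 95% intervals for counting error. The Th17 sum lies at 0.375, the Y-linked sum lies lower at 0.225, and the gamma-delta and dendritic cell sums lie between 0.602 and 0.728. Most counts of the gamma-delta sum are from Trdc.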

How the data were processed

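RNA was sequenced from 2 pooled libraries, 1 per group, assigned by the treatment label. The submitters' processing notes name STAR, RSEM 1.3.1 and build GRCm38. Not given in the sources used here: STAR version, annotation and strand use. The deposited values are the authors' expected counts, in which a read that matches several genes is shared out among them, without scaling between libraries. In the 2.5HIP-PLG and untreated libraries 11.1% and 11.8% of rows were not whole.

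Counts were rounded to whole numbers and scaled by column total. Ratios carry exact conditional binomial (Clopper-Pearson) 95% intervals from scipy 1.17.1. No molecular identifiers are described, so intervals and floors hold counting error alone. Genes with a count sum of at least 20 were taken as measured. A fold against 0 used a floor of 3 counts in the library at 0. Coordinates and exon lengths came from GENCODE M21 on GRCm38, which holds 54495 of the row IDs, and promoter sequences from RefSeq on GRCm38.p6. The intervals and calls were tested on simulated counts. The 9 genes, the gene lists and the call rule were chosen with earlier results of these data known. Named genes were the 9 members, the measured genes of each list with the largest absolute log2 ratio (up to 4), Il17ra, Il12rb1, Stat3 and Traf3ip2, the 3 most abundant markers per list and the nearest measured neighbours, of which 1 is not reported here. Other genes are marked in the text, except Uty, Clec9a, Fcgr1, Ms4a1, Gm15511, Iltifb, Il17b, Il25 and Ccl20, which were also named after their values were seen. Alternatives were TMM scaling of edgeR 4.0.16, the median of ratios of DESeq2 1.42.0, upper quartile scaling, unrounded counts, other count minimums, a ratio of 2, a 99% interval and 2 added counts. Protein sequences were not used here.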

Additional observations from a re-analysis of the deposited data

How the results depend on the processing

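All 9 genes were called lower under TMM, median-of-ratios and upper quartile scaling, with unrounded counts, with count minimums of 10 and none and with a 99% interval. With a ratio of 2 in place of 1.5, 8 were, and Ccr6, at 0.502, just missed it. With a count minimum of 100, 6 genes were measured and 6 were lower, and with genes of whole counts only, chosen after seeing the data, 8 of 8. Over the scalings, the ratio of Ccr6, the nearest to 1, ran from 0.497 to 0.506. The scalings moved the median log2 ratio of all genes by 0.01 in either direction. Counts over all genes moved more. In the main setting 1348 of 13902 genes were lower and 716 higher. With a minimum of 100, 748 were lower and 473 higher, from 11095 genes. With a ratio of 2, 808 were lower and 387 higher, from 13902 genes. With whole counts only, 891 were lower, from 8804 genes, so that count fell with the number of genes. Of the other pathway genes, 8 were lower and 3 higher with a ratio of 2, against 13 and 7. No paired analysis was possible because there is 1 library per group and no label pairs them. Depth limits the cytokine genes, whose 2.5HIP-PLG counts were 0 to 6, and with 1 pool per group the spread between mice is unknown.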
